A study of Rattus norvegicus with 22 samples.

Results

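The circadian clock genes were examined in RNA from the nucleus accumbens (NAc), a reward-related region of the ventral striatum, of 22 adult male Wistar rats. The group was chosen by name and holds 10 genes (Clock, Arntl, Per1, Per2, Per3, Cry1, Cry2, Nr1d1, Nr1d2 and Dbp) of the 17310 gene symbols in the deposited tables. All 10 were listed in every library, and all 10 passed the filter on low counts in both experiments. In experiment 1, 5 rats had free choice between 6% ethanol (EtOH) and water for 8 weeks, and 5 rats drank only water. In experiment 2, all 12 rats drank 6% EtOH or water by choice for 4 weeks, then for a further 2 weeks once a 3-week gavage period had ended. During that period 6 rats were given EtOH by gavage at 2.5 g/kg as a 30% solution, 2 times per day, and 6 were given water by gavage. The water gavage group is therefore also an EtOH-drinking group, and the contrast of experiment 2 is the added dose. All rats were outbred and housed singly under a light cycle with 12 hours of light per day. They were killed within minutes of removal of the EtOH bottles, and the hour of the day is not given in the sources used here.

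The mammalian clock is a feedback loop of transcription. CLOCK and ARNTL (also called BMAL1) form the activator, which binds E-box sequences and switches on the Per and Cry genes, whose proteins then repress it. NR1D1 and NR1D2 (REV-ERB alpha and beta) are nuclear receptors that repress Arntl through ROR response elements (RORE), and DBP is a bZIP factor that acts on D-box sequences and is itself a direct output of the activator. In most tissues Arntl therefore peaks in the opposite phase to Dbp, Nr1d1 and the Per genes, and the striatum has such a rhythm of its own. Each rat here was sampled once, which gives 1 point of that rhythm per rat.

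Upstream sequence is shown for each window that held a motif and for Dbp, the member with the smallest P-value in experiment 1, so that the regulatory letters can be read beside the values. The windows are the 250 bases before an annotated transcription start in RefSeq (GRCr8). An entry was found for 9 of the 10 members, in 11 windows, and Arntl was matched through its synonym Bmal1. Cry1 had none. Capitals mark the motifs searched on both strands, which were the E-box CACGTG, its variant CACGTT, the RORE core TAGGTCA and the D-box TTATGNAA. No position is shared between the capitals of different motifs.
Arntl, chr1:176766078-176766327, plus strand: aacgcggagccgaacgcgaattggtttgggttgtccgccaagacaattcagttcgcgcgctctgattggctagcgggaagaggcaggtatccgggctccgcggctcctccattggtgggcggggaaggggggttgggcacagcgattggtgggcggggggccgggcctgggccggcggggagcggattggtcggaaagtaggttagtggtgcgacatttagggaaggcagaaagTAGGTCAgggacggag
Per2, chr9:99496994-99497243, minus strand: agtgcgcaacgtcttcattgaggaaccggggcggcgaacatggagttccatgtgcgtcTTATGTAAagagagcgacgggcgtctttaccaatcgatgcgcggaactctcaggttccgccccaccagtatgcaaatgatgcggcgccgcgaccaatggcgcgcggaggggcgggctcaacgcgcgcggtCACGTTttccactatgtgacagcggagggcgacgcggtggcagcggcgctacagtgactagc
Cry2, chr3:98860438-98860687, minus strand: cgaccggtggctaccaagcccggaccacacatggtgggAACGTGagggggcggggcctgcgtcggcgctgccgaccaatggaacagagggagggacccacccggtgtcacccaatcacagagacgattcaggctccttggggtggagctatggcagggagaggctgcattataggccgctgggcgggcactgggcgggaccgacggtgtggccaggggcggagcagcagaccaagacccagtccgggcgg
Nr1d1 start 1, chr10:84231813-84232062, minus strand: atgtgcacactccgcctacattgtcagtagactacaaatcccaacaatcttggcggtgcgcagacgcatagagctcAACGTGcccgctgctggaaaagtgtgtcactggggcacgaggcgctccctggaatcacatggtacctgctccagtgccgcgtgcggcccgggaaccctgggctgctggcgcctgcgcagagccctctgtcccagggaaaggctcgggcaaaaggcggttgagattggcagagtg
Nr1d1 start 2, chr10:84229455-84229704, minus strand: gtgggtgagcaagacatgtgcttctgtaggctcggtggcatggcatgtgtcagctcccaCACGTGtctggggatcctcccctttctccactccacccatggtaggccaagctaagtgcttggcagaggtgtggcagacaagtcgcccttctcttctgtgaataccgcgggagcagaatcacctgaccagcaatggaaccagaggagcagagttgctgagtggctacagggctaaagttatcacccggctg
Dbp, chr1:105312006-105312255, plus strand: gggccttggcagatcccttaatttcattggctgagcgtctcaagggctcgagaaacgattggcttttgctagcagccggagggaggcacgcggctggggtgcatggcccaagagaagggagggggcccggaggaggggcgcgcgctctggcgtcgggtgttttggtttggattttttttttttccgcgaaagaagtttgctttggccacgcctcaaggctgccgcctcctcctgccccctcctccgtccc

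The window of Arntl held the RORE core, from 16 to 10 bases before the start. The window of Per2 held the E-box variant 62 to 57 bases and a D-box 192 to 185 bases before the start. The variant also lay on the opposite strand in the window of Cry2 (212 to 207 bases before the start) and at the first start of Nr1d1 (174 to 169 bases). The canonical E-box was found at the second start of Nr1d1, 191 to 186 bases before it. In all, 5 of the 11 windows held a motif, and those of Clock, Per1, Per3, Nr1d2 and Dbp held none of these letters. Among all 33469 windows of the same length, 5.59% held the E-box, 4.07% its variant, 2.26% the RORE core and 3.28% the D-box. These are matches of letters in a short window and not measured binding sites.

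Each library is 1 rat. Gene counts totalled 2962291 to 5247386 per rat in experiment 1 and 6713617 to 8765472 in experiment 2. Markers of NAc projection neurons (9 of 10 symbols listed, none at 0) summed to 2710 to 5383 normalised counts (CPM, counts scaled to a fixed library size) per rat in experiment 1 and to 4330 to 8466 CPM in experiment 2. The libraries of experiment 2 did not form 1 cloud. In 4 of them, water gavage rats 1 and 5 and EtOH gavage rats 1 and 2, more than 52% of the reads lay outside annotated genes, and these 4 also stood apart from the other 8 on the first principal component of all genes tested, which held 73.2% of the variance within groups. The corresponding share in experiment 1 was 24.3%. The fold changes and the main correlations of the members in experiment 2 are given with and without these 4 libraries. Leaving them out did not even out the share of reads outside genes between the groups. In the libraries left it was 46.1% to 50.3% with water gavage and 49.8% to 51.7% with EtOH gavage. The medians over all rats of each group were 49.6% and 51.4%. The experiments differed in library type (not stranded in experiment 1, stranded in experiment 2), so their levels are set side by side and not compared.

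**Figure D1:**
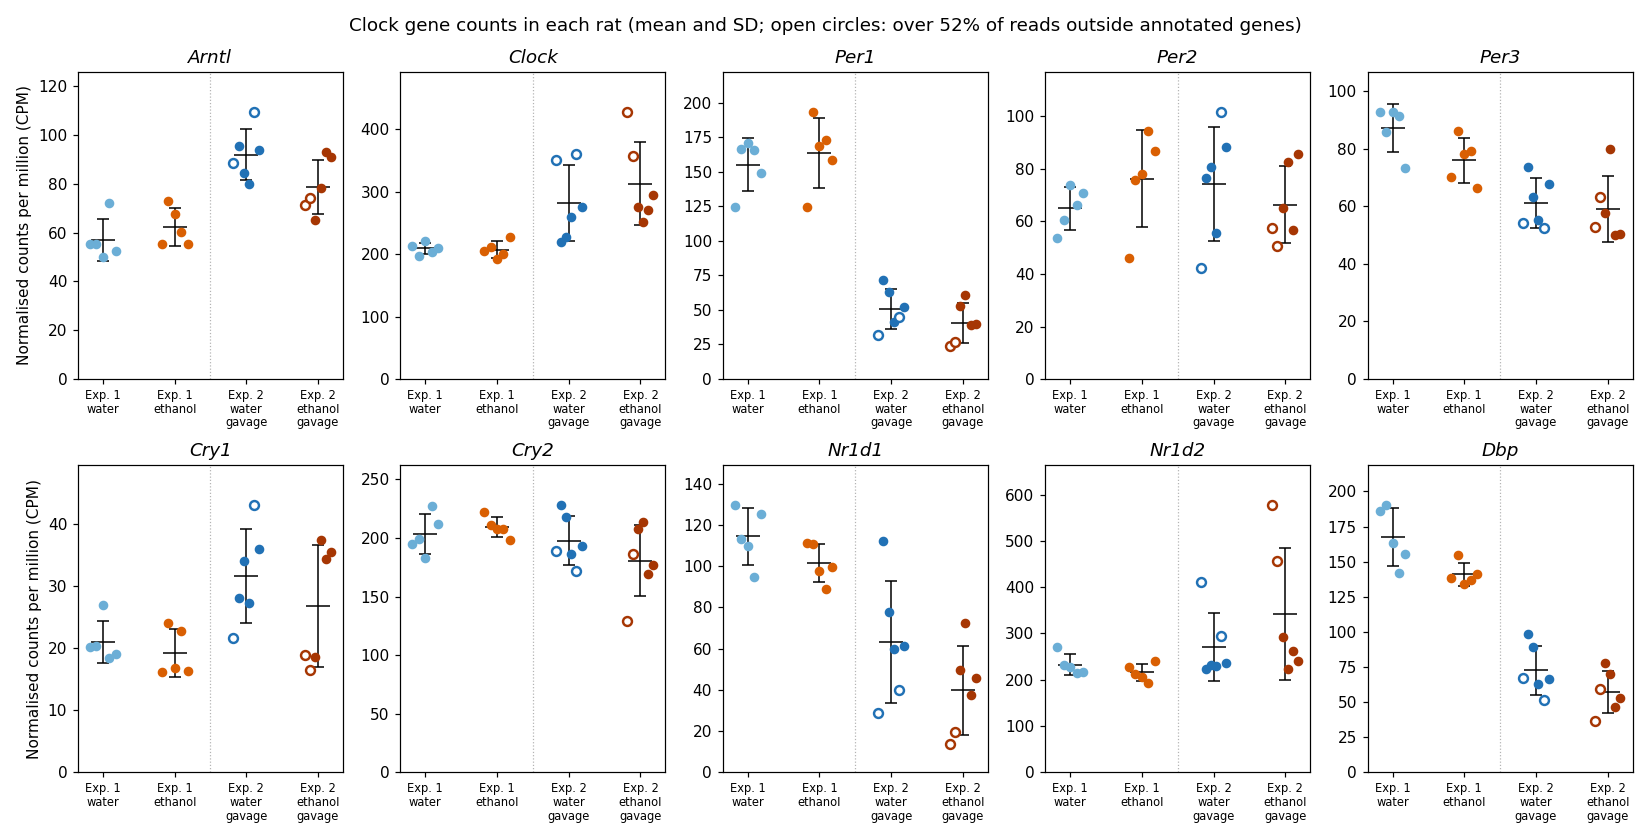
Normalised counts (CPM) of the 10 clock genes in each rat, by group, with the mean and SD as black bars. Open circles are the 4 libraries of experiment 2 with more than 52% of reads outside annotated genes. The groups overlap for every gene in both experiments, and the open circles sit at the low end for Nr1d1 and at the high end for Clock and Nr1d2.

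In experiment 1 the question was whether voluntary EtOH intake changed the level of clock genes in the NAc. Dbp, the output factor, had the smallest P-value and was lower with EtOH, followed by Per3. No member passed an FDR of 0.05 (background: 0% of the 8655 genes tested passed). At an unadjusted P under 0.05, 2 of 10 members were reached, both lower, where 5.58% of all genes tested were reached and 2.58% were reached and lower. The sign was lower for 6 of the 10 members and for 50.5% of all genes, with a median log2 fold change of -0.060 over the members and -0.0012 over all genes tested. No member had groups that did not overlap (0.843% of all genes tested).

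The activator genes differed little. Arntl was at 55.3, 55.5, 50.2, 72.0 and 52.3 CPM in the 5 water rats and at 55.5, 73.1, 67.5, 60.3 and 55.4 CPM in the 5 EtOH rats. The groups overlapped widely, and water rat 4 lay just under the highest EtOH rat. The log2 fold change of Arntl was 0.14 ± 0.11 (SE, FDR = 0.924 in edgeR's quasi-likelihood test), and 0.23 without water rat 4. Clock was among the steadiest genes measured. Its coefficient of variation was 4.35% in water rats and 6.43% in EtOH rats, and its spread within groups was larger than that of only 6.57% of the genes tested. The means of Clock were 209.2 ± 9.10 and 207.4 ± 13.3 CPM (SD, n = 5 each).

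Among the repressor genes, Per2 had the widest spread. It was at 53.6, 60.4, 73.8, 66.4 and 71.0 CPM in water rats and at 45.9, 76.0, 78.0, 94.4 and 86.7 CPM in EtOH rats. The EtOH group held both the lowest rat and the 4 highest rats of the experiment, and the log2 fold change was 0.23 ± 0.15 (SE, FDR = 0.914 in edgeR). It was 0.35 without EtOH rat 1 and 0.14 without EtOH rat 4. Per3, a Per paralogue that is not essential for the rhythm in mice, was at 92.7, 85.9, 92.7, 91.3 and 73.2 CPM in water rats and at 70.3, 86.0, 78.3, 79.3 and 66.2 CPM in EtOH rats. The second and the fifth water rats lay inside the EtOH range. The log2 fold change of Per3 was -0.19 ± 0.089 (SE) with P = 0.0496 and FDR = 0.866 in edgeR, and P = 0.0873 in an exact two-sided permutation test. Per1, which neurons also induce as an immediate early gene, averaged 155.2 ± 19.1 CPM with water and 163.6 ± 25.2 CPM with EtOH (SD, n = 5 each). Cry1 ranged from 16.1 to 26.9 CPM and Cry2 from 182.9 to 227.3 CPM over all 10 rats, with log2 fold changes of -0.14 ± 0.16 and 0.043 ± 0.066 (SE), and that of Cry1 was -0.019 without water rat 3.

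The receptors of the second loop and Dbp were all lower on average with EtOH. Nr1d1 was at 129.5, 113.0, 109.8, 94.5 and 125.1 CPM in water rats and at 111.1, 110.5, 97.4, 88.8 and 99.5 CPM in EtOH rats. The 3 highest values were water rats and the lowest an EtOH rat, and the log2 fold change was -0.18 ± 0.091 (SE, FDR = 0.866 in edgeR). For Nr1d2 the difference was -0.11 ± 0.076 on the log2 scale (SE, FDR = 0.914). Dbp was at 186.2, 190.2, 163.1, 141.9 and 155.3 CPM in water rats and at 138.5, 155.1, 134.1, 136.6 and 140.9 CPM in EtOH rats. All EtOH rats but the second lay below the lowest water rat, and that second rat lay below 4 of the 5 water rats. The log2 fold change of Dbp was -0.25 ± 0.082 (SE), a mean of 141.1 against 167.3 CPM, with P = 0.00927 and FDR = 0.823 in edgeR and P = 0.0159 in the exact permutation test, where 0.00794 is the smallest that 5 against 5 rats allow. Dbp also varied less among EtOH rats (5.83% coefficient of variation) than among water rats (12.3%), a difference that was not tested. Summed neuroblast markers (5 of 5 listed) were at 208.3 to 277.8 CPM in water rats and 280.4 to 390.9 CPM in EtOH rats of this experiment. The summed ranges of the 2 groups overlapped for the other 9 marker lists. Of their tested genes, 8 of 9 projection neuron markers were lower with EtOH (median log2 fold change -0.25, 1 at an unadjusted P under 0.05). All 5 endothelial and mural markers were higher (median 0.091, 2 at P under 0.05). The 1 fibroblast and the 1 ependymal marker tested were higher at 0.64 and 0.65, each at P under 0.05. Of 4 cortical neuron markers (median 0.14) 3 were higher and 1 lower. The lower 1 was at P under 0.05, and 1 of the 4 had groups that did not overlap. No oligodendrocyte, astrocyte or microglial marker reached that P. All 3 neuroblast markers tested were higher at P under 0.05 (median 0.55), 2 of them without overlap of the groups. Over all genes tested, 50.5% were lower, 5.58% reached that P and 0.843% had groups that did not overlap. With group means removed, Pearson's r of Dbp with the summed markers was -0.78 for cortical neurons and 0.56 for oligodendrocytes (n = 10). It lay between -0.17 and 0.48 for the other lists, and the median size of r over all pairs of genes was 0.27. The part of these markers in the clock gene values was not tested.

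**Figure D2:**
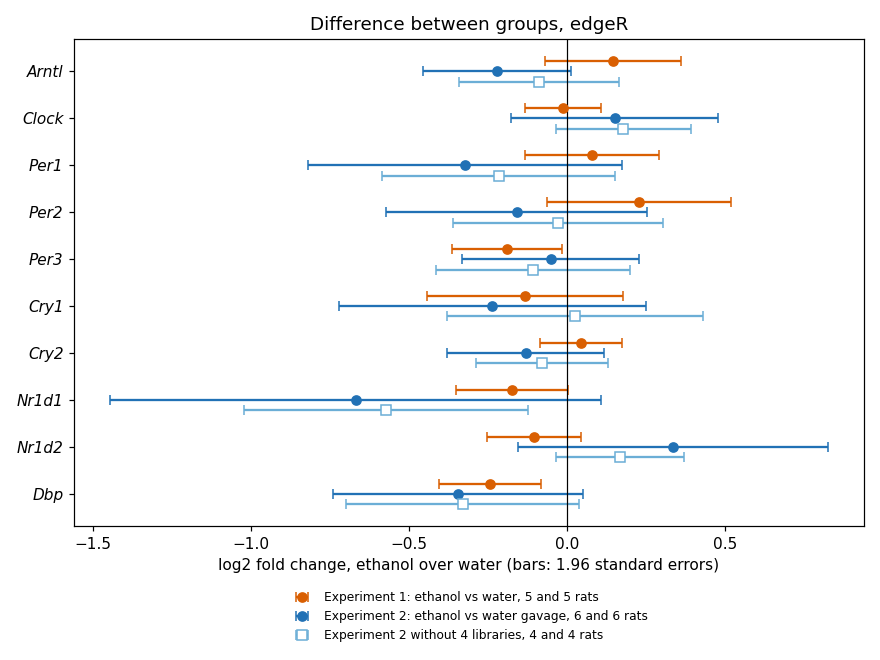
Log2 fold change of each clock gene, EtOH over water, from edgeR, with bars of approximate 95% intervals. Filled points are the fits on all rats of each experiment (5 and 5, 6 and 6), and open squares the fit of experiment 2 without the 4 libraries that stood apart. In experiment 1 the bars of Per3 and Dbp lie below 0, and in experiment 2 on all rats every bar reaches 0. Without the 4 libraries the bar of Nr1d1 lies below 0 (FDR = 0.460 in edgeR). In that fit 916 of the 8655 genes tested had an unadjusted P under 0.05. There the share of reads outside genes still ran higher with EtOH gavage than with water gavage.

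In experiment 2 the question was whether the added EtOH dose by gavage shifted clock gene levels relative to water gavage. The means of 8 of the 10 members were lower with EtOH gavage and those of Clock and Nr1d2 were higher, but no member reached an unadjusted P of 0.05 (1.33% of the genes tested did, 0.624% on the lower side) or an FDR of 0.05 (0% did). The median log2 fold change was -0.19 over the members against 0.00088 over all genes, of which 49.9% were lower. Without the 4 libraries 7 of the 10 members were lower. No member had groups that did not overlap (0.0116% of all genes tested). The spread was wider in this experiment: the biological coefficient of variation fitted over all genes was 31.3%, against 11.1% in experiment 1.

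Arntl was the member with the smallest P-value. It ranged from 80.1 to 109.5 CPM (median 91.3) in the 6 water gavage rats and from 65.1 to 93.1 CPM (median 76.3) in the 6 EtOH gavage rats. The lower part of the EtOH group lay below every water rat, and its upper part inside the water range. The log2 fold change of Arntl was -0.22 ± 0.12 (SE, P = 0.0850, FDR = 0.675 in edgeR), with P = 0.0563 in the exact permutation test, whose smallest value for 6 against 6 rats is 0.00216. Without the 4 libraries it was -0.090 ± 0.13 (SE, n = 4 each). Arntl was also one of the steadier genes here, with a spread within groups larger than that of 11.6% of the genes tested. Clock ranged from 219.4 to 360.5 CPM (median 267.9) with water gavage and from 252.0 to 427.9 CPM (median 285.3) with EtOH gavage, a log2 fold change of 0.15 ± 0.17 (SE), and 0.18 ± 0.11 without the 4 libraries.

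The Per and Cry genes were each lower on average with EtOH gavage, within their spread. Per1 ranged from 32.0 to 71.7 CPM (median 48.2) with water gavage and from 23.6 to 60.6 CPM (median 39.5) with EtOH gavage, a log2 fold change of -0.32 ± 0.25 (SE), and -0.22 ± 0.19 without the 4 libraries. The 2 lowest Per1 values were EtOH gavage rats 1 and 2, both among the libraries that stood apart. The log2 fold changes of Per2, Per3, Cry1 and Cry2 lay between -0.24 and -0.052. Without the 4 libraries they were -0.030 ± 0.17 for Per2, -0.11 ± 0.16 for Per3, 0.025 ± 0.21 for Cry1 and -0.081 ± 0.11 for Cry2 (SE).

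Nr1d1 had both the largest fold change and the widest spread of the members. It ranged from 28.7 to 112.3 CPM (median 60.3) with water gavage and from 13.5 to 72.3 CPM (median 41.5) with EtOH gavage. The group means were 63.2 ± 29.6 and 39.7 ± 21.4 CPM (SD, n = 6 each), so the SD was 46.8% and 53.9% of the mean. The log2 fold change was -0.67 ± 0.40 (SE, FDR = 0.675 in edgeR, exact permutation P = 0.143). Without the 4 libraries it was -0.58 ± 0.23 (SE, n = 4 each, FDR = 0.460 in edgeR), and with the share of reads outside genes as a covariate in the fit of all 12 rats it was -0.063 ± 0.14 (SE). In the libraries left that share still ran higher with EtOH gavage, and r of Nr1d1 with it was -0.72 within groups. The part of the share in the fit without the 4 libraries was not tested. The paralogue Nr1d2 was higher on average, at 341.9 ± 142.9 CPM with EtOH gavage against 271.3 ± 73.5 CPM (SD, n = 6 each), with a log2 fold change of 0.33 ± 0.25 (SE), and 0.17 ± 0.10 without the 4 libraries. Its sign turned to -0.092 ± 0.11 (SE) with the same covariate. Dbp ranged from 51.7 to 98.2 CPM (median 66.6) with water gavage and from 36.5 to 77.8 CPM (median 56.1) with EtOH gavage. Its log2 fold change was -0.35 ± 0.20 (SE, FDR = 0.675 in edgeR, exact permutation P = 0.128) on all rats and -0.33 ± 0.19 (SE) without the 4 libraries. With the share of reads outside genes as a covariate in the fit of all 12 rats, that of Dbp was -0.14 ± 0.17 (SE).

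Dbp, Nr1d1, Per3 and Cry1 were lower on average with EtOH in both experiments, with no value passing the FDR. The log2 fold changes ± SE were -0.25 ± 0.082 and -0.35 ± 0.20 for Dbp and -0.18 ± 0.091 and -0.67 ± 0.40 for Nr1d1. They were -0.19 ± 0.089 and -0.052 ± 0.14 for Per3 and -0.14 ± 0.16 and -0.24 ± 0.25 for Cry1. With the share of reads outside genes as a covariate, experiment 2 gave -0.14 ± 0.17 for Dbp and -0.063 ± 0.14 for Nr1d1. It gave 0.037 ± 0.13 for Per3 and -0.089 ± 0.22 for Cry1. Whether the exposure difference itself differed between experiments was tested as an interaction in 1 fit of all 4 groups, over 8176 genes, of which 0% passed an FDR of 0.05 and 1.88% reached an unadjusted P of 0.05. Arntl was the 1 member that reached it. Its fold change was 0.35 log2 units lower in experiment 2 than in experiment 1 (-0.35 ± 0.17 SE, FDR = 0.813 in edgeR). For Dbp the difference was -0.092 ± 0.24 (SE, FDR = 0.889). An exposure in drinking water and a gavage dose on top of drinking are not the same contrast. The fit of all 4 groups also shares 1 spread over libraries of unlike type and depth. Its biological coefficient of variation was 0.244, against 0.111 and 0.313 in the separate fits of experiments 1 and 2. Its standard errors and P-values, also where it is given as an alternative below, carry this limit.

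The wider clock list of regulators, kinases, ubiquitin ligases and outputs held 31 symbols, of which 24 were in the files and 21 were tested. None passed the FDR in either experiment. In experiment 1, 13 were higher and 8 lower, and 2 of the 21 reached an unadjusted P of 0.05, where 5.58% of all genes did. These were Usp2, a deubiquitinase under clock control, at 0.28 ± 0.11 (log2 fold change ± SE, FDR = 0.861 in edgeR), and Cipc, an inhibitor of CLOCK, at -0.14 ± 0.061 (FDR = 0.866 in edgeR). Prkaa1, a catalytic subunit of AMP-activated kinase, came next at 0.14 ± 0.10 (FDR = 0.924 in edgeR). In experiment 2, 12 were higher and 9 lower and none reached P of 0.05, where 1.33% of all genes did. The lowest were Ccrn4l (nocturnin, a rhythmic phosphatase) at 0.36 ± 0.18, Id2, an inhibitor of basic helix-loop-helix factors, at -0.49 ± 0.28, and Nampt, the rate-limiting enzyme of the NAD salvage pathway, at 0.29 ± 0.17 (each FDR = 0.675 in edgeR).

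Genes that share inputs with Per1 were also read. Of 14 tested immediate early genes in experiment 1, 13 were higher with EtOH, with a median log2 fold change of 0.17, and none reached an unadjusted P of 0.05 (all genes: 50.5% lower, 5.58% at that P). In experiment 2, 3 of 11 were higher, with a median of -0.20, and 1 reached it (all genes: 49.9% lower, 1.33% at that P). Glucocorticoid-induced genes were higher on average for 6 of 8 tested members in experiment 1 (median 0.069) and for 9 of 10 in experiment 2 (median 0.39), with none at P of 0.05. Per1 itself stood at 0.077 ± 0.11 in experiment 1 and -0.32 ± 0.25 in experiment 2 (log2 fold change ± SE). Its sign was that of the immediate early gene median in both experiments. Against the median of the glucocorticoid-induced genes it was the same in experiment 1 and opposite in experiment 2. With the share of reads outside genes as a covariate in experiment 2, Per1 was at 0.015 ± 0.14 (SE). The list medians were read only from the fit without that covariate. A link of Per1 with either list was not tested.

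Co-variation among rats was measured on deviations of log2 CPM from the group mean, so that a difference between groups does not enter. With 45 pairs of members per experiment, P-values came from permutation within groups and were adjusted over the 45 pairs. In experiment 1 none of the 45 pairs passed an adjusted P of 0.05. The size of r reached 0.7 in 1 pair, a positive one, and in 4.64% of all pairs of genes tested (2.37% positive and 2.27% negative). That pair was Per1 and Per2 (r = 0.74, permutation P = 0.0407, adjusted P = 0.483; rho = 0.25, permutation P = 0.528; n = 10). It rested on few rats, since r was -0.36 without the 2 rats farthest from the median of Per1. The largest of the other positive r was 0.63, between Per3 and Cry1, with 0.58 for Per1 and Cry1, 0.58 for Arntl and Per3 and 0.55 for Arntl and Cry2. Of the 45 pairs, 24 had a negative r. The largest of these in size were -0.64 for Per1 and Nr1d2 and -0.54 for Per2 and Nr1d1 (adjusted permutation P = 0.483 for each). Without the 2 rats farthest from the median of the first gene of each pair they were -0.24 and -0.29. Among the Nr1d receptors and Dbp, r was 0.60 between Nr1d1 and Nr1d2, 0.59 between Nr1d1 and Dbp and 0.56 between Nr1d2 and Dbp (adjusted permutation P = 0.483 for each, n = 10; rho was 0.65, 0.52 and 0.79, with permutation P = 0.0608, 0.209 and 0.0109). Without the 2 rats farthest from the median of Nr1d1, r was 0.13 with Nr1d2 and 0.48 with Dbp. Arntl ran opposite to Nr1d1 and to Dbp in sign (r = -0.38 and -0.21), but both signs turned without water rat 4, to 0.19 and 0.50. The median size of r was 0.38 over the members and 0.27 over all pairs of genes.

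**Figure D3:**
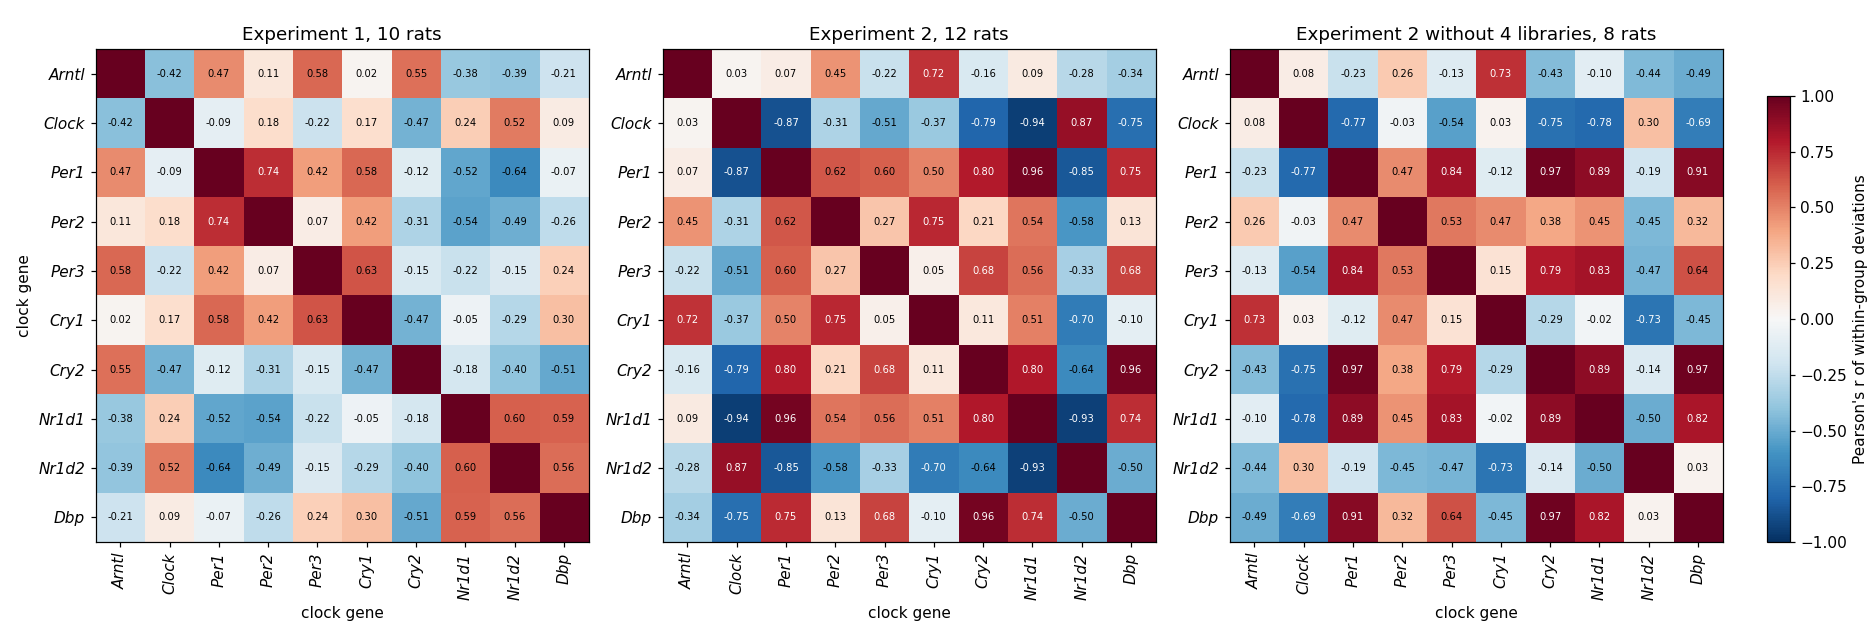
Pearson's r of the deviations from the group mean for each pair of clock genes, in experiment 1 (10 rats), experiment 2 (12 rats) and experiment 2 without the 4 libraries that stood apart (8 rats). Red is positive and blue negative. The block of Per1, Per3, Cry2, Nr1d1 and Dbp is red in both panels of experiment 2, while the red cell of Clock with Nr1d2 fades from 0.87 to 0.30 in the panel of 8 rats.

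In experiment 2 the size of r was larger among the members and also among all genes. Of the 45 pairs, 14 passed an adjusted P of 0.05, with 8 positive and 6 negative. The size of r reached 0.7 in 16 of 45 pairs (9 positive, 7 negative), and in 34.2% of all pairs of genes tested (17.1% positive and 17% negative), so the members' share was near the background. Their median size of r, 0.56, equalled that of all pairs to 2 digits. Without the 4 libraries, 14 of 45 pairs, not all of them among the 16, reached 0.7 in size, against 14.7% of all pairs of genes, and none passed an adjusted P of 0.05 (10 had an unadjusted permutation P under 0.05, n = 8). Whether r differed between the experiments was not tested.

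A positive set held Per1, Cry2, Nr1d1 and Dbp. Cry2 and Dbp moved together (r = 0.96, permutation P = 2e-05, adjusted P = 0.000675; rho = 0.94, permutation P = 5e-05; n = 12), and r was 0.97 both without the 2 rats farthest from the median of Cry2 and in the 8 libraries (there adjusted permutation P = 0.0809). Of the other 8654 genes tested, only 2 had a higher r with Dbp than Cry2, which ranked 3. Within the water gavage and the EtOH gavage group of 6 rats each, r of Cry2 and Dbp was 0.996 and 0.961. In experiment 1 the same pair had r = -0.51 (adjusted permutation P = 0.612, n = 10). Per1 and Nr1d1 did so at the same r to 2 digits (r = 0.96, permutation P = 3e-05, adjusted P = 0.000675; rho = 0.97, permutation P = 2e-05; n = 12), with r = 0.93 without the 2 farthest rats and 0.89 in the 8 libraries. These were also the 2 pairs that passed when the share of reads outside genes was regressed out, at r = 0.93 for Cry2 and Dbp and 0.85 for Per1 and Nr1d1. In experiment 1 Per1 and Nr1d1 had r = -0.52. Nr1d1 and Dbp, both targets of the activator, had r = 0.74 in experiment 2 (permutation P = 0.0125, adjusted P = 0.0402; rho = 0.73, permutation P = 0.01415; n = 12) and 0.82 in the 8 libraries, with 0.72 without the 2 rats farthest from the median of Nr1d1. Among the 8654 other genes tested, Nr1d1 ranked only 923 and Per1 788 by r with Dbp on 12 rats.

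Clock and Nr1d2 formed the opposite pole on all 12 rats. Clock and Nr1d1 had r = -0.94 (permutation P = 0.00012, adjusted P = 0.00135; rho = -0.89, permutation P = 0.00024; n = 12), and Nr1d1 and its paralogue Nr1d2 had r = -0.93 (permutation P = 8e-05, adjusted P = 0.0012; rho = -0.79, permutation P = 0.00556; n = 12). Clock and Nr1d2 had r = 0.87 (permutation P = 0.0007, adjusted P = 0.00525; rho = 0.75, permutation P = 0.00451; n = 12). Without the 2 rats farthest from the median of the first gene of each pair these r were -0.94, -0.84 and 0.88. In the 8 libraries they were -0.78, -0.50 and 0.30, and with the share of reads outside genes regressed out they were -0.21, -0.30 and -0.37. In experiment 1 Nr1d1 and Nr1d2 had the opposite sign, at 0.60.

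The levels of these members followed the 4 libraries. Nr1d1 was at 13.5 to 39.98 CPM in the 4 and at 37.3 to 112.3 CPM in the other 8. Nr1d2 was at 293.6 to 577.3 CPM in the 4 and at 223.0 to 291.7 CPM in the other 8, without overlap. Clock was likewise separate, at 350.9 to 427.9 CPM against 219.4 to 295.5 CPM. Over the 12 rats, r with the share of reads outside genes was 0.96 for Clock (rho = 0.93), -0.96 for Nr1d1 (rho = -0.89), 0.94 for Nr1d2 (rho = 0.91) and -0.88 for Per1 (rho = -0.81), each with a permutation P, adjusted over the 10 members, of 0.00252 or less for r and 0.0104 or less for rho. For Cry2 r was -0.69 (rho = -0.57, adjusted permutation P = 0.0365 and 0.127) and for Dbp -0.62 (rho = -0.49, adjusted permutation P = 0.0802 and 0.191). Without the 2 rats farthest from the median share, r was 0.95 for Clock, -0.91 for Nr1d1, 0.88 for Nr1d2 and -0.75 for Per1. In the 8 libraries r of these 4 genes was 0.86, -0.72, 0.50 and -0.53. For Cry2 and Dbp r was -0.58 and -0.54 without the 2 rats and -0.48 and -0.43 in the 8 libraries. The median size of r with that share was 0.78 over all genes tested. For Arntl it was -0.16 (rho = -0.29, adjusted permutation P = 0.640 and 0.378). In experiment 1 the share spanned 48.4% to 51.1% and no member followed it (adjusted permutation P = 0.925 for each of the 10 members).

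**Figure D4:**
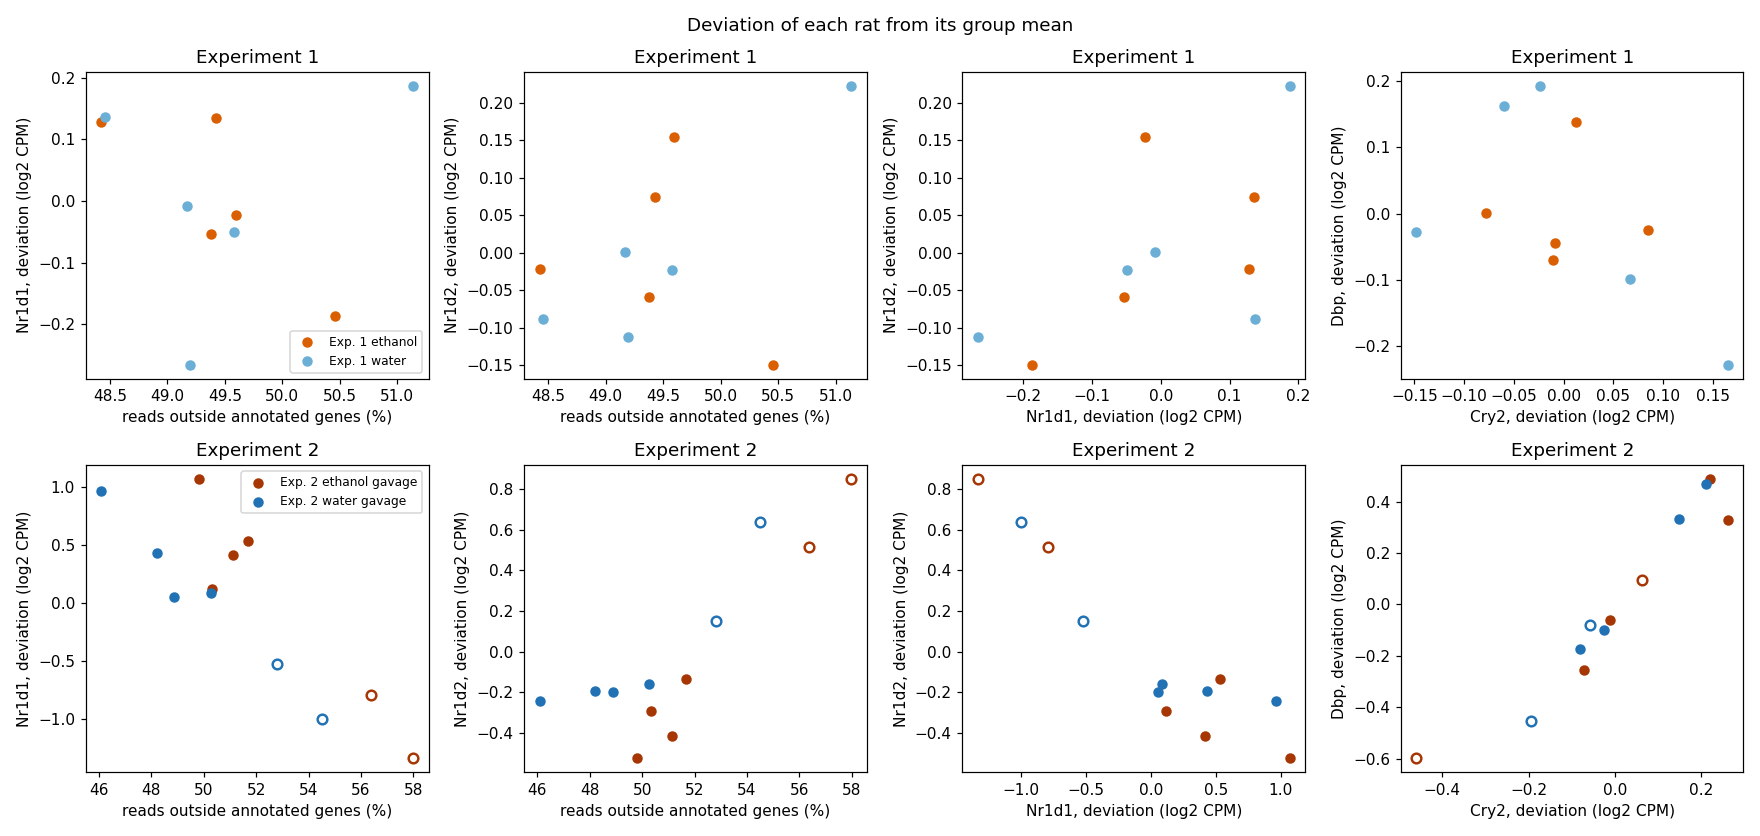
Deviations of log2 CPM from the group mean in each rat. The left panels plot Nr1d1 and Nr1d2 against the percentage of reads outside annotated genes, and the right panels plot Nr1d2 against Nr1d1 and Dbp against Cry2, with experiment 1 above and experiment 2 below. Open circles are the 4 libraries over 52%. The inverse line of Nr1d1 and Nr1d2 in experiment 2 runs through the open circles, while Cry2 and Dbp lie on 1 line in all 12 rats.

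Some cell type markers also moved with the 4 libraries. Over the 12 rats, r of the summed markers with the share of reads outside genes was -0.89 for microglia, -0.85 for cortical neurons and 0.81 for neuroblasts. It was 0.66 for astrocytes, -0.66 for endothelial and mural cells, -0.43 for ependyma and 0.34 for oligodendrocytes. For fibroblasts it was -0.23, for projection neurons 0.21 and for choroid plexus -0.057. The median size over all genes tested was 0.78. Summed microglial markers (5 of 5 listed, none at 0) were at 157.4 to 256.6 CPM in the 4 and 226.5 to 370.3 CPM in the other 8, and by group at 166.9 to 370.3 CPM with water gavage and 157.4 to 305.3 CPM with EtOH gavage. Summed cortical neuron markers (5 of 5, none at 0) were at 5.51 to 44.8 CPM in the 4 and 87.0 to 550.8 CPM in the other 8, and by group at 5.57 to 550.8 CPM and 5.51 to 409.8 CPM. Summed astrocyte markers (5 of 5, none at 0) were at 3612 to 4828 CPM in the 4 and 2804 to 3955 CPM in the other 8, and by group at 2891 to 3891 CPM and 2804 to 4828 CPM. Summed neuroblast markers (5 of 5, none at 0) were at 223.6 to 401.8 CPM in the 4 and 167.4 to 309.5 CPM in the other 8, and by group at 167.4 to 315.3 CPM and 203.9 to 401.8 CPM. By group all 10 marker lists overlapped, those of oligodendrocytes, endothelial and mural cells, fibroblasts, choroid plexus and ependyma included, and between the 4 and the 8 all but the cortical neuron list did. Col1a2 was the 1 marker listed at 0 throughout, among those of fibroblasts. With Nr1d1, r of the summed markers was 0.89 for microglia, 0.78 for cortical neurons, -0.75 for neuroblasts and for astrocytes, and -0.26 to 0.65 for the other lists. With Dbp it was -0.74 for astrocytes, 0.61 for cortical neurons, 0.52 for microglia and -0.34 to 0.32 for the others. With Per1 it was 0.87 for microglia and -0.64 to 0.67 for the others. The median size of r over all pairs of genes was 0.56. The part of cell makeup in the clock gene values was not tested, and in bulk tissue fewer cells of a type and less RNA per cell cannot be told apart.

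Arntl and Cry1 made a separate positive pair in experiment 2 (r = 0.72, permutation P = 0.0209, adjusted P = 0.0628; rho = 0.66, permutation P = 0.0360; n = 12), with r = 0.61 without the 2 rats farthest from the median of Arntl, 0.73 in the 8 libraries and 0.024 in experiment 1. Per2 and Cry1 passed the adjusted threshold on 12 rats (r = 0.75, permutation P = 0.00344, adjusted P = 0.0154; rho = 0.82, permutation P = 0.00128), with r = 0.68 without the 2 rats farthest from the median of Per2 and 0.47 in the 8 libraries. Arntl and Nr1d1, the gene of its repressor, had r = 0.088 on 12 rats and -0.10 in the 8 libraries. Arntl and Dbp, which peak in opposite phases in most tissues, had r = -0.34 on 12 rats and -0.49 in the 8 libraries, and neither pair passed the adjusted permutation threshold.

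The genes most like Arntl and Dbp were read from the tested genes that are not clock genes of this set, as r of the same deviations. With Arntl these were Arhgap20 (0.96), Add2 (0.95) and Slitrk4 (0.93) over the 10 rats of experiment 1, and Smyd4 (0.92), Cct3 (0.88) and Ptpn9 (0.86) over the 12 rats of experiment 2. The most opposed were Fgfr1 (-0.94), Pam16 (-0.93) and Tas1r1 (-0.92) in experiment 1 and Ypel4 (-0.93), Wdsub1 (-0.83) and Slc25a27 (-0.81) in experiment 2. With Dbp they were Olfml1 (0.96), Dcps (0.95) and Mrpl43 (0.94) in experiment 1 and Tmem175 (0.97), Zbtb5 (0.97) and Fuk (0.96) in experiment 2. Opposed to Dbp were Rasl11b (-0.97), Gfod1 (-0.95) and Pcyox1 (-0.94) in experiment 1 and Ttc14 (-0.95), Dnaja1 (-0.95) and Ublcp1 (-0.93) in experiment 2. No gene was named in both experiments, and all of these are extremes picked from 8655 genes over few rats.

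In RefSeq (GRCr8) the span of Nr1d1 overlaps Thra, the thyroid hormone receptor alpha gene. Thra and Nr1d1 had r = 0.98 in experiment 2 (permutation P = 1e-05, the smallest that 100000 draws can give; rho = 0.99, the same permutation P; n = 12) and 0.033 in experiment 1 (permutation P = 0.941; rho = 0.018, permutation P = 0.977; n = 10). Without the 4 libraries r of Thra and Nr1d1 was 0.89 (n = 8). The part of shared reads in these values was not tested. Annotated transcripts also overlap Clock, Per2, Cry1 and Cry2, so reads in the shared stretches are uncertain for these genes too, and in experiment 1, without strand, they cannot be told from antisense transcripts.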

How the data were processed

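PolyA+ RNA-seq libraries of the NAc of 22 rats were analysed, in 4 groups taken from the sample labels. The authors aligned the reads to the rat genome (Rnor_6.0) with TopHat2 2.0.13, counted reads per gene with HTSeq (0.5.3p3 and 0.6.0 per the submitters' processing notes) and deposited raw read counts per gene for each sample. The counting options and annotation release are not given in the sources used here. Reads in the 5 summary lines were left out of library sizes, and reads outside annotated genes were 46.1% to 58.0% of those assigned or falling outside genes.

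Each experiment was fitted on its own in edgeR 4.0.16 (R 4.3.3; TMM, estimateDisp, glmQLFit and glmQLFTest at their defaults) on the 8655 genes whose base mean lay above the median, 43.6 in experiment 1 and 66.4 in experiment 2, and P-values were adjusted by Benjamini-Hochberg over those genes. Each standard error is the fold change divided by the square root of its F statistic. CPM were computed on effective library sizes, and log2 CPM with a prior count of 2. Correlations used 100000 permutations within groups (seed 1), and single genes an exact permutation test over rats. Motifs were searched in RefSeq upstream windows of GRCr8, and no coordinates were converted between builds. Scripts were tested on simulated data.

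The members and all lists (wider clock, immediate early, glucocorticoid-induced and cell type markers) were chosen with earlier results of these data known. Every member is named, with the 3 genes of lowest P from the wider list in each experiment and the 3 highest and 3 lowest r with Arntl and with Dbp. Pairs of libraries within a group differed by a chi-square per degree of freedom of at least 2.67, so none was counted as a duplicate. Same-numbered rats deviated together in 1 of 5 pairs of experiment 1 and 4 of 6 of experiment 2 (r over 0.1). In experiment 2 the mean r was 0.15 for same-numbered rats and 0.0074 for other numbers, and single pairs ran from -0.76 to 0.84. In experiment 1 the means were -0.00023 and 0.00075. Replicate numbers were not used to pair rats in the main fits, and these values do not settle whether they should be. Alternatives were DESeq2 1.42.0, other size factors and filters, the newer mode of glmQLFit, all groups in one fit, a replicate block, the share of reads outside genes in the model, and omission of each rat. Leaving out the 4 libraries over 52%, and counting members by unadjusted P, were added after the data were seen.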

Additional observations from a re-analysis of the deposited data

Results flagged for a closer look

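A rat was singled out where its gap to the nearest other rat of its group, divided by the range of the group, passed Dixon's critical value at the 95% level for that group size. Over the 10 members, 3 values passed, and chance flags about 1 in 20 groups, or 2.2 of the 44 sets of group values scanned, which were the 10 members and the share of reads outside genes in 4 groups. Arntl in water rat 4 of experiment 1 was at 72.0 CPM, with the next rat at 55.5 and the lowest at 50.2 CPM (gap 0.754 of the range). Cry1 in water rat 3 of experiment 1 was at 26.9 CPM, with the next rat at 20.3 and the lowest at 18.3 CPM (gap 0.769). Nr1d2 in water gavage rat 1 of experiment 2 was at 411.9 CPM, with the next rat at 293.6 and the lowest at 223.3 CPM (gap 0.627), and this rat's library was 1 of the 4 with more than 52% of reads outside annotated genes.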

How the results depend on the processing

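No member and no gene of the wider clock list passed an FDR of 0.05 under any alternative of either experiment, each rat left out included. Over all genes tested the lowest FDR with DESeq2 was 0.122 in experiment 1 and 0.806 in experiment 2, and 632 and 315 genes had an unadjusted P under 0.05 there. The count of members at an unadjusted P under 0.05 in experiment 1, 2 as reported, was 1 with DESeq2, 1 in the newer mode of glmQLFit, 1 with the share of reads outside genes as a covariate, 0 with all 4 groups in one fit, 3 under the replicate block (Per3, Nr1d1 and Dbp), and 1 to 3 with a rat left out. Dbp stayed among them with each rat left out, and Per3 only without water rat 5 or EtOH rat 2. Of all genes tested in experiment 1, 483 of 8655 reached that P as reported, 478 in the newer mode and 528 with the covariate. In the one fit 80 of 8176 did, under the block 476 of 8655, and with a rat left out 380 to 743. In experiment 2 the count, 0 as reported, was 1 under the replicate block (Dbp), 1 without the 4 libraries (Nr1d1), 2 with all 4 groups in one fit (Nr1d1 and Dbp), and 0 to 1 with a rat left out. That 1 was Dbp without EtOH gavage rat 3, Nr1d1 without EtOH gavage rat 4 and Arntl without EtOH gavage rat 5. Of all genes tested in experiment 2, 115 of 8655 reached that P as reported, 414 under the block and 916 without the 4 libraries. In the one fit 587 of 8176 did, and without EtOH gavage rats 3, 4 and 5 in turn 126, 776 and 123 of 8655. In the test of the difference between experiments, the count, 1 as reported (Arntl), was 0 with DESeq2 size factors, 0 without the filter, 1 under the replicate block and 0 to 2 with a rat left out. Of all genes in that test, 154 of 8176 reached that P as reported, 158 with DESeq2 size factors and 339 under the block. Without the filter 429 of 13688 did, and with a rat left out 85 to 644 of 8176.

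Signs turned for some members. The log2 fold change of Clock in experiment 1 spanned -0.050 to 0.012 with a rat left out (0.0083 without water rat 3), and that of Per3 in experiment 2 -0.16 to 0.0080. With the share of reads outside genes as a covariate, experiment 2 gave -0.092 for Clock, 0.015 for Per1, 0.037 for Per3 and -0.092 for Nr1d2, and without the 4 libraries 0.025 for Cry1. The cause was not tested.

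The 14 correlated pairs of experiment 2 became 9 with Spearman's rho, 2 with the share of reads outside genes regressed out (where permutation is approximate), 0 without the 4 libraries and 0 under the replicate block, which leaves 6 differences between same-numbered rats. With a rat left out they spanned 9 to 16, and the count was 9 without water gavage rat 2 and 9 without EtOH gavage rat 1. Under the block, r turned in experiment 1 to 0.14 for Arntl and Nr1d1, 0.48 for Per1 and Nr1d1 and -0.55 for Nr1d1 and Nr1d2, and in experiment 2 to 0.59 for Arntl and Dbp. The replicate block left 0 correlated pairs in experiment 1, and moved the genes at an unadjusted P under 0.05 from 483 to 476 and from 115 to 414. Without water rat 4 of experiment 1, r was 0.19 for Arntl and Nr1d1 (-0.65 to 0.19 over each rat left out) and 0.50 for Arntl and Dbp (-0.51 to 0.50). In experiment 2, r of Arntl and Nr1d1 was -0.22 with the share regressed out, -0.10 without the 4 libraries and -0.071 to 0.24 over each rat left out (lowest without EtOH gavage rat 1), r of Clock and Nr1d2 was -0.37 with the share regressed out, and r of Nr1d2 and Dbp was 0.31 with the share regressed out and 0.032 without the 4 libraries. Counting error weighs most on Cry1, whose base mean of 74.3 in experiment 1 was the lowest of the members.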
